A study of Mus musculus with 44 samples.

Results

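The mouse Cd209 genes, Cd209a to Cd209g, were followed across the 5 groups of a bleomycin skin fibrosis experiment. All 7 were found in the table through their Ensembl identifiers, among 43411 genes, and all 7 passed the filter of a mean above 3 normalized counts that left 17037 genes for testing. The family was taken up because Cd209g after 6 weeks of recovery and Cd209b after 10 weeks of recovery were known to be among the genes furthest below saline, so the members were chosen by their differences between recovery and saline, and those differences are given here as a description with no test. Female wild type C57Bl/6 mice, 8 weeks old at the start, received 100 µL under the skin of the back each day. The groups were saline (n = 10), bleomycin at 1 U/mL for 2 weeks (n = 10), bleomycin for 4 weeks (n = 10), and recovery for 6 weeks (n = 6) or 10 weeks (n = 8), the recovery mice having first had 4 weeks of bleomycin. A supplementary legend of the study gives a lower bleomycin concentration. Because the duration of the saline injections and the age of the saline mice at harvest are not given in the sources used here, age and recovery cannot be told apart in any comparison of recovery with saline. Age may also differ in the comparisons of bleomycin with saline. Since all mice were 8 weeks old at the start, groups harvested later were also older. Age therefore cannot be told apart from treatment or recovery time in comparisons among the bleomycin and recovery groups. Each sample was whole skin from 1 biopsy, sequenced as poly(A) RNA.

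CD209 proteins are C-type lectins, membrane receptors that hold carbohydrate ligands with the help of calcium through a domain at the end of a stalk. The human protein is known as DC-SIGN, which binds mannose-rich and fucosylated glycans of microbes and the adhesion molecules of other cells, and the mouse has a cluster of related genes in its place. In mice these receptors are known from dendritic cells and from macrophages of the skin, spleen and lymph node. Cd209b encodes SIGNR1, the polysaccharide receptor of marginal zone macrophages of the spleen. Cd209d encodes SIGNR3, a receptor for mycobacterial glycans, and Cd209a encodes the mouse DC-SIGN found on monocyte-derived dendritic cells. The roles of the other 4 genes are less well known.

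All 7 genes lie in a stretch of 394.3 kb at chr8:3743397-4137707 (GRCm38), which holds no other protein-coding gene. In the order of the chromosome they are Cd209a (chr8:3743397-3748984), Cd209e (chr8:3847965-3854309), Cd209d (chr8:3871824-3878555), Cd209b (chr8:3917655-3926844), Cd209c (chr8:3940222-3954746), Cd209f (chr8:4102787-4105835) and Cd209g (chr8:4134098-4137707). The first 6 in this order are transcribed from the minus strand, and Cd209g from the plus strand. Cd209f and Cd209g are set apart, with 148.0 kb between Cd209c and Cd209f and 28.3 kb between Cd209f and Cd209g, so that this pair points away from each other.

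Cd209f and Cd209g are also the closest pair in sequence. Of the 50-base stretches in their longest coding transcripts, 38.17% (Cd209f) and 38.66% (Cd209g) were identical to a stretch of the other gene. A single read of this length from these parts cannot be assigned to one of them without its mate. Cd209c shared 22.39% of its 50-base stretches with other genes, and the remaining 4 members shared 0%. The counting tool and its treatment of such reads are not given in the sources used here, so the values of Cd209f and Cd209g may not be fully separate measurements. The likeness extends into their promoters, which are shown because both genes changed together in the data below. The 250 bases before each start, from RefSeq (GRCm38.p6), are Cd209f at chr8:4105765-4106014 on the minus strand and Cd209g at chr8:4134486-4134735 on the plus strand, with the run of 154 bases that is identical in both in capitals. The RefSeq starts used here lie inside the longer gene spans given above.
Cd209f: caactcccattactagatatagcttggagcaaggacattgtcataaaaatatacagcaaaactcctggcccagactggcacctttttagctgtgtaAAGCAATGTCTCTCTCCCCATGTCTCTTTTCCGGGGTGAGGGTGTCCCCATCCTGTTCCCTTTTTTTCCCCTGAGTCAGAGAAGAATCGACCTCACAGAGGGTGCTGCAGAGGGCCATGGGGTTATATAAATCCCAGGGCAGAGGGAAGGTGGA
Cd209g: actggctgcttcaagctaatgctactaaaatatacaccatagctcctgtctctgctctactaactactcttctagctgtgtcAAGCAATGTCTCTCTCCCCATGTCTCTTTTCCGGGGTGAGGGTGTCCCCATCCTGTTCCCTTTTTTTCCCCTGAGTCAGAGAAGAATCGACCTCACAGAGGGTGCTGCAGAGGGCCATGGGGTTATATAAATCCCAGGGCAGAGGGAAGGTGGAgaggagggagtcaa
Over 236 aligned positions the windows were 80.1% identical. Among the other 20 pairs of members the longest identical run was 12 bases (Cd209d and Cd209e). Short motifs were searched on both strands in the 250 bases before the start, with letters chosen while these windows were in view. The ETS core CCGGAA was present in 5 of 7 members (Cd209a, Cd209b, Cd209e, Cd209f and Cd209g) and in 12.2% of all 27025 promoters. In Cd209f and Cd209g it lies on the reverse strand within the identical run, so this pair does not count as separate occurrences. The PU.1-type core AGGAAG, which shares the bases GGAA with it, was present in 3 of 7 members and 29.2% of promoters. The MAF-type motif TGCTGA was present in 2 of 7 and 15.8%, and the STAT6-type motif in Cd209e and in 5.9%.

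The normalized count used throughout is the number of reads on a gene divided by 1 size factor for each mouse, and each mouse had between 8509094 and 15285577 reads on genes. Every member was counted with 23 reads or more in every mouse. Among saline mice, levels of different members are compared per kilobase of the longest coding transcript. On this scale Cd209d was highest with a mean of 669 normalized counts per kb, followed by Cd209f (483), Cd209a (454), Cd209e (242), Cd209g (225), Cd209b (152) and Cd209c (84.8). This order depends on the length used. The exons of all transcripts together span 1988 bases for Cd209f and 3610 for Cd209g, against the 1186 and 1169 used here. A pair of libraries stood apart from their groups. Saline mouse 1 had the lowest summed level of the family among saline mice (1607 normalized counts, against 2556 to 4022 in the others), the lowest sum of the general macrophage list (12939 against 15328 to 26840) and the highest sum of the hair follicle list. It was also lowest in the sums of the other lists, such as skeletal muscle (65281 against 126050 to 224136), except the STAT6 and CSF1 list. Mouse 2 of the 2 week group had the highest sum of the general macrophage list (68352 against 25961 to 49497), with a family sum of 1399 that lay inside the range of the others. Counts are therefore given with all 44 mice and with the 42 mice that remain without them.

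**Figure D1:**
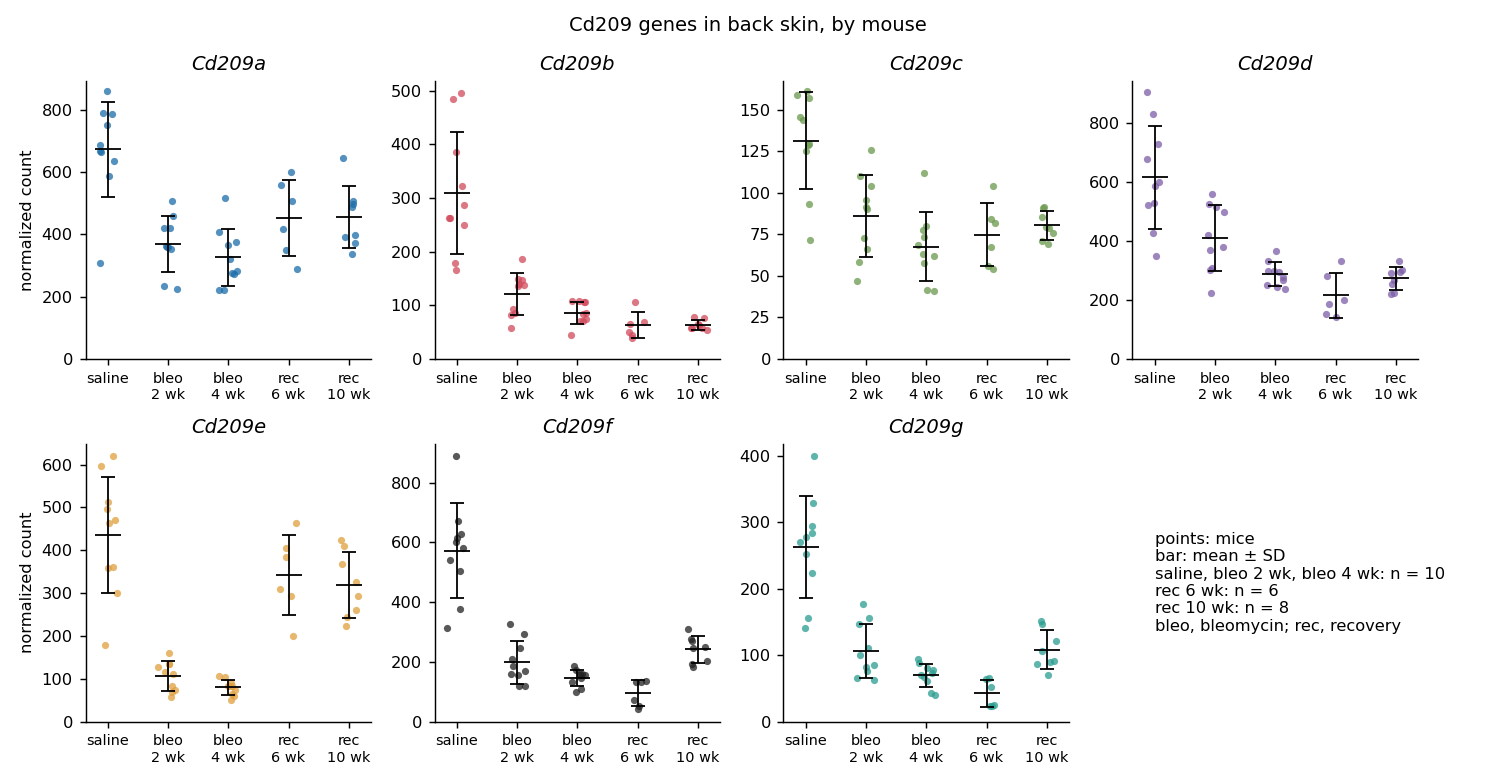
Normalized counts of the 7 Cd209 genes (vertical axes, linear, from 0) in each mouse of the 5 groups (horizontal axes), with the mean and SD. Every group mean after saline lay below the saline mean, and Cd209e rose again after bleomycin while Cd209b did not.

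The Cd209 genes were lower in skin treated with bleomycin. After 2 weeks, 6 of the 7 members were called lower and 0 higher, where a call is an adjusted p-value below 0.05 (limma, Benjamini-Hochberg over all genes tested) and a fold change above 1.5, and 7.43% of all genes were called lower and 9.3% higher in this comparison. After 4 weeks all 7 were called lower, against 7.37% of all genes called lower and 10.5% called higher. Over the 42 mice, 7 were called lower at either time. No member was higher at an unadjusted p below 0.05, and edgeR and DESeq2 on the recovered reads called 7 lower and 0 higher at both times. The median log2 fold change of the members, on the scale of log2(normalized count + 1), was -1.32 at 2 weeks and -1.80 at 4 weeks, beside 0.00 over all genes tested. These comparisons share the saline mice with the comparisons for which the family was chosen. In whole skin, fewer cells of a type and less RNA per cell cannot be told apart.

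Cd209e fell furthest. In saline skin it had a lowest, median and highest normalized count of 180, 467 and 620, in the 2 week group 56.7, 115 and 161, and in the 4 week group 49.8, 82.5 and 107. All 10 mice of either bleomycin group lay below all 10 saline mice. The log2 fold change was -2.01 ± 0.19 (SE, adjusted p = 1.11e-11, limma) at 2 weeks and -2.39 ± 0.19 (adjusted p = 8.41e-14) at 4 weeks, and the mean at 4 weeks was 18.4% of the saline mean.

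Cd209f and Cd209g fell to a similar degree. Cd209f had 313, 591 and 888 normalized counts (lowest, median and highest) in saline skin, 119, 178 and 328 after 2 weeks and 99.7, 156 and 186 after 4 weeks. Cd209g had 141, 274 and 399 in saline skin, 63.4, 92.4 and 177 after 2 weeks and 40.1, 71.3 and 94.0 after 4 weeks. For both genes the 4 week mice lay wholly below the saline mice, and the 2 week mice overlapped them. The log2 fold changes at 4 weeks were -1.92 ± 0.19 for Cd209f (adjusted p = 5.63e-11, limma) and -1.89 ± 0.21 for Cd209g (adjusted p = 1.21e-09).

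Cd209b, the SIGNR1 gene, had 166, 275 and 495 normalized counts in saline skin, 58.6, 137 and 186 after 2 weeks and 44.9, 84.9 and 108 after 4 weeks. Its 4 week values also lay below every saline value, with a log2 fold change of -1.80 ± 0.19 (adjusted p = 4.55e-10, limma). In all, the groups did not overlap for 1 of 7 members at 2 weeks (Cd209e) and for 4 of 7 at 4 weeks (Cd209b, Cd209e, Cd209f and Cd209g), all of them lower, against 1.33% and 2.21% of all genes.

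The remaining 3 members fell less. Cd209a, the mouse DC-SIGN gene, had a mean of 673 ± 153 (SD, n = 10) normalized counts in saline skin, 370 ± 89.5 after 2 weeks and 326 ± 91.9 after 4 weeks, which is 54.9% and 48.4% of the saline mean. Cd209d, the SIGNR3 gene, had 615 ± 173 in saline skin, 410 ± 113 after 2 weeks and 287 ± 40.4 after 4 weeks. Cd209c had 131 ± 29.3, 86.3 ± 24.7 and 67.7 ± 20.5. Their groups overlapped the saline mice at both times. For Cd209a at both times, and for Cd209d at 4 weeks, the overlap came from saline mouse 1 alone. This mouse had 308 normalized counts of Cd209a and 348 of Cd209d, and the next lowest saline mice had 586 and 427. The highest Cd209a values were 507 at 2 weeks and 516 at 4 weeks, and the highest Cd209d value at 4 weeks was 367. The log2 fold changes at 4 weeks were -1.05 ± 0.16 for Cd209a (adjusted p = 1.82e-06, limma), -1.06 ± 0.16 for Cd209d (adjusted p = 5.32e-07) and -0.96 ± 0.16 for Cd209c (adjusted p = 6.94e-06). At 2 weeks Cd209d differed by 1.498-fold with an adjusted p of 0.00269 and so missed the fold change criterion, which it met with a log2 fold change of -0.71 over the 42 mice and without any one of saline mice 1, 3, 4 and 7 or 2 week mice 1, 2, 5, 9 and 10 (-0.59 to -0.67). Cd209c, at -0.62 ± 0.16 (adjusted p = 0.00241, limma), lost its call at 2 weeks without saline mouse 9 or without 2 week mouse 2, 4 or 7 (-0.53 to -0.58).

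Between 2 and 4 weeks of bleomycin, a comparison that shares no mouse with those that chose the family, the members had log2 differences of -0.19 (Cd209a) to -0.57 (Cd209g), with a median of -0.38. Of the 7, 0 were called by limma in either direction, against 0.863% of all genes called lower and 1.49% called higher. At an unadjusted p below 0.05, 4 were lower and 0 higher, against 10.3% and 10.4% of all genes. edgeR on the recovered reads called 0, and DESeq2 called 1, Cd209g. The smallest adjusted p of limma was 0.0618, for Cd209d.

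**Figure D2:**
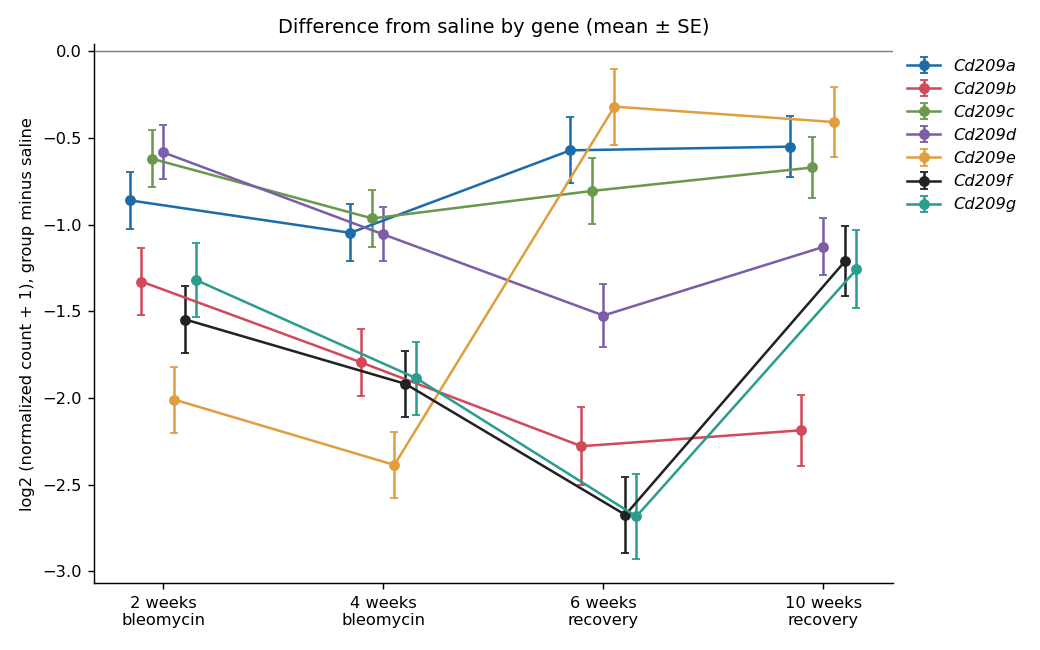
Log2 difference of each Cd209 gene from saline (vertical axis, on the scale of log2(normalized count + 1), mean ± SE) in the 4 treated groups (horizontal axis, not to a time scale, lines join values of a gene). All differences lay below 0, and the genes spread apart in recovery, from -0.32 for Cd209e to -2.68 for Cd209g at 6 weeks.

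After bleomycin was stopped the members separated. Relative to 4 weeks of bleomycin, 1 member was called higher at 6 weeks of recovery (Cd209e) and 2 were called lower (Cd209f and Cd209g), against 4.8% of all genes called higher and 7.14% called lower. At 10 weeks of recovery 3 members were called higher (Cd209e, Cd209f and Cd209g), against 6.73% of all genes, and 0 lower, against 9.1%. No member was lower at an unadjusted p below 0.05 in that comparison, and edgeR and DESeq2 called 0 lower. The same counts were obtained over the 42 mice. The recovery mice are those of the comparisons that chose the family, so these calls are not independent of that choice.

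Cd209e came back toward the saline level. It had 199, 346 and 463 normalized counts (lowest, median and highest) at 6 weeks and 223, 310 and 423 at 10 weeks. Every recovery mouse lay above all 10 mice of the 4 week bleomycin group. This separation was seen upward for 4.44% of all genes at 6 weeks and 2.66% at 10 weeks. Each recovery mouse lay within the range of the saline mice, but the low end of that range was saline mouse 1 (180). The next lowest saline mouse had 299, and some mice of both recovery groups lay below it. The log2 fold change against 4 weeks of bleomycin was 2.07 ± 0.22 (SE, adjusted p = 8.40e-10, limma) at 6 weeks and 1.98 ± 0.20 (adjusted p = 1.31e-10) at 10 weeks. Its recovery means were 78.6% and 73.1% of the saline mean.

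Cd209b stayed low. It had 39.1, 58.1 and 107 normalized counts at 6 weeks and 53.5, 60.5 and 78.6 at 10 weeks, below every saline mouse. Against 4 weeks of bleomycin its log2 differences were -0.48 ± 0.22 (adjusted p = 0.112, limma) and -0.39 ± 0.21 (adjusted p = 0.146), so neither a further fall nor a return passed the test. Its means were 20.3% and 20.6% of the saline mean at 6 and 10 weeks.

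Cd209f and Cd209g went down and then up. At 6 weeks Cd209f had 42.5, 102 and 136 normalized counts and Cd209g had 23.6, 38.9 and 65.6. At 10 weeks Cd209f had 185, 247 and 312 and Cd209g had 69.6, 98.8 and 152. All 8 mice at 10 weeks lay above all 6 mice at 6 weeks for both genes, a separation that 0.17% of all genes showed in this direction. Against 4 weeks of bleomycin, Cd209f differed by -0.76 ± 0.22 (adjusted p = 0.00951, limma) at 6 weeks and 0.71 ± 0.20 (adjusted p = 0.00576) at 10 weeks, and Cd209g by -0.80 ± 0.24 (adjusted p = 0.0135) and 0.63 ± 0.22 (adjusted p = 0.0277), on the log2 scale. The family was chosen by the 6 week level of Cd209g, and Cd209f shares sequence with it. Their p-values and calls at 6 weeks are therefore no independent support. The calls at 6 weeks also rest on few mice. Without recovery mouse 3 neither gene was called, with -0.56 for Cd209f and -0.66 for Cd209g. Cd209g also lost its call without mouse 1 (-0.68) or mouse 4 (-0.66). At 10 weeks Cd209g lost its call without 4 week bleomycin mouse 3 (0.55) or mouse 8 (0.56), or without 10 week recovery mouse 2 (0.56) or mouse 3 (0.55).

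The direct comparison of 10 with 6 weeks of recovery called 2 members, Cd209f and Cd209g, both higher, where 3 of 17037 genes (0.0176%) were called higher and 12 (0.0704%) lower. The genes outside the family named here were chosen after their values were seen. The third gene called higher was Baz1a, a chromatin remodelling subunit, with a log2 fold change of 0.75 ± 0.15. Cd209f rose by 1.47 ± 0.23 (adjusted p = 0.00101, limma) and Cd209g by 1.43 ± 0.26 (adjusted p = 0.0047). Under 54 alternatives, among them leaving out each of the 44 mice, both were called every time, with log2 fold changes of 1.27 to 1.60 for Cd209f and 1.29 to 1.58 for Cd209g. Most of the mice left out belonged to groups outside this comparison. The highest adjusted p over these fits (limma, edgeR or DESeq2) was 0.0154 for Cd209f and 0.048 for Cd209g, the latter close to the threshold. Since the pair shares sequence and Cd209g was known for its low level at 6 weeks, the 2 calls are neither independent of each other nor of the choice of the family. For the other 5 members the differences lay between -0.09 (Cd209e) and 0.40 (Cd209d). Among the 12 genes called lower were Lox, which cross-links collagen (-1.03 ± 0.16), Cthrc1, a secreted protein of matrix-producing fibroblasts (-1.74 ± 0.31), and Ctsk, a collagen-degrading protease (-0.90 ± 0.15).

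Cd209a, Cd209c and Cd209d changed less in recovery. Cd209a had means of 453 ± 122 (SD, n = 6) and 454 ± 99.4 (n = 8) normalized counts at 6 and 10 weeks, 67.3% and 67.5% of the saline mean. Against 4 weeks of bleomycin it differed by 0.48 ± 0.19 (SE, adjusted p = 0.0604, limma) and 0.50 ± 0.17 (adjusted p = 0.0245) on the log2 scale, the latter under the fold change criterion. It was called at 6 weeks without recovery mouse 4 (0.60). Cd209d had means of 216 ± 75.7 and 273 ± 39.2, with log2 differences of -0.47 ± 0.18 (adjusted p = 0.0502) and -0.07 ± 0.17 (adjusted p = 0.781). Without recovery mouse 2, which had the highest value of both genes at 6 weeks, Cd209d (-0.61) and Cd209b (-0.65) were called lower. Cd209c had means of 74.7 ± 19.0 and 80.4 ± 8.44 and was not called.

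As a description only, the log2 differences from saline at 6 weeks of recovery were -2.68 ± 0.24 (SE) for Cd209g, -2.67 ± 0.22 for Cd209f, -2.28 ± 0.22 for Cd209b, -1.52 ± 0.18 for Cd209d, -0.80 ± 0.19 for Cd209c, -0.57 ± 0.19 for Cd209a and -0.32 ± 0.22 for Cd209e. At 10 weeks they were -2.19 ± 0.21 for Cd209b, -1.26 ± 0.22 for Cd209g, -1.21 ± 0.20 for Cd209f, -1.13 ± 0.17 for Cd209d, -0.67 ± 0.17 for Cd209c, -0.55 ± 0.17 for Cd209a and -0.41 ± 0.20 for Cd209e. The 5 members from Cd209g to Cd209c at 6 weeks and the 5 from Cd209b to Cd209c at 10 weeks lay over 1.5-fold below saline, where 5.56% and 2.86% of all genes did. Mice did not overlap with saline for 4 members at 6 weeks and 3 at 10 weeks, against 0.54% and 0.147% of all genes. Nothing is read from these shares, since these comparisons chose the family. Over the 42 mice each difference was lower still, from -2.76 (Cd209g) to -0.45 (Cd209e) at 6 weeks and from -2.28 (Cd209b) to -0.54 (Cd209e) at 10 weeks. By the group means, saline was highest for every member. The lowest group was 4 weeks of bleomycin for Cd209a, Cd209c and Cd209e, and 6 weeks of recovery for Cd209b, Cd209d, Cd209f and Cd209g. Counting neighbours in these orders as separate where their means lie further apart than their SDs reach, saline stood apart from 2 weeks of bleomycin for Cd209b and from 10 weeks of recovery for Cd209f and Cd209g, and 10 weeks of recovery stood apart from 2 weeks of bleomycin for Cd209e. No other neighbours did.

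**Figure D3:**
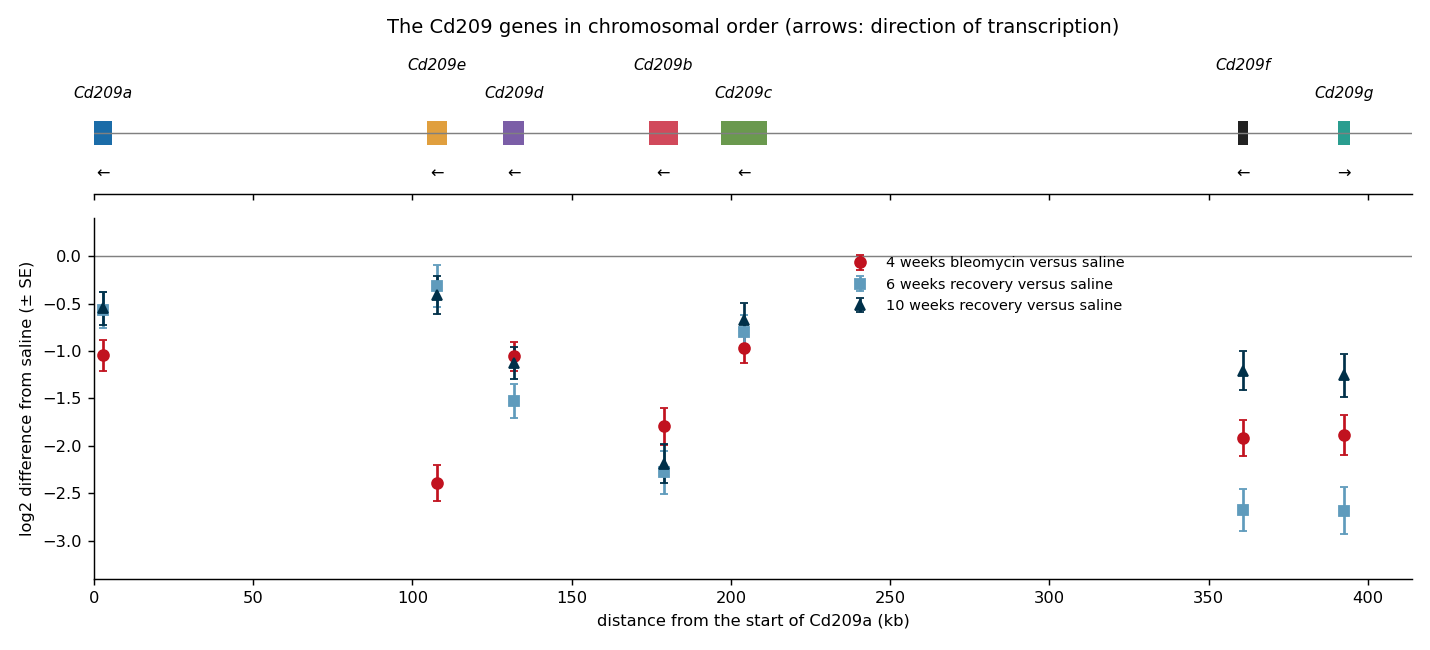
The Cd209 genes at their distance from the start of Cd209a (horizontal axis, kb), with the direction of transcription above and the log2 difference from saline (± SE) at 4 weeks of bleomycin, 6 weeks and 10 weeks of recovery below. Neighbours such as Cd209e and Cd209d, or Cd209b and Cd209c, differed in how far they lay from saline in recovery, and Cd209f and Cd209g lay side by side.

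The genes next to the cluster were examined in the same fits. Of the 3 protein-coding genes before it, Clec4g, another C-type lectin, had means of 21.2 normalized counts in saline skin, 6.68 and 3.84 after 2 and 4 weeks of bleomycin and 14.9 and 18.6 at 6 and 10 weeks of recovery. It was called lower at 2 weeks (-1.53 ± 0.24 on the log2 scale) and 4 weeks (-2.22 ± 0.24) and higher than 4 weeks of bleomycin at 6 weeks (1.76 ± 0.28) and 10 weeks (2.02 ± 0.25). Fcer2a, the low-affinity IgE receptor and also a C-type lectin, had means of 8.68, 1.74, 2.41, 10.9 and 14.5 in the same order and was called in the same 4 comparisons and directions. Trappc5, a vesicle transport subunit, was not called in any comparison tested. On the other side Evi5l and Lrrc8e stayed within 1.5-fold in all tested comparisons, with log2 differences of -0.36 ± 0.06 and -0.50 ± 0.10 at 4 weeks of bleomycin, and Prr36 fell below the filter.

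The samples were bulk skin, so the cells that carried the Cd209 transcripts were not identified, and lists of marker genes show what else moved. Of 12 general macrophage genes, 10 were called higher at 2 weeks and again at 4 weeks of bleomycin. The list median was 0.96 and 0.88 on the log2 scale, beside 0.00 over all genes. Fcgr1, a high-affinity IgG receptor, rose by 3.23 ± 0.21 (adjusted p = 6.53e-17, limma) at 2 weeks, and Lyz2, a lysozyme of myeloid cells, by 1.01 ± 0.14, whereas Csf1r, the receptor for the growth factor CSF1, differed by 0.36 ± 0.17 (adjusted p = 0.0878). Of 10 genes of infiltrating monocytes, 9 were called higher at both times, with medians of 3.70 and 2.49. Ly6c2 rose from a mean of 35.5 normalized counts in saline skin to 2653 at 2 weeks and 790 at 4 weeks, and Chil3, a chitinase-like protein, from 2.64 to 354 and 161. In recovery against 4 weeks of bleomycin, 10 of the 12 macrophage genes and 9 of the 10 monocyte genes were called lower at 6 weeks, and as many at 10 weeks.

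Members were also set against the mean log2 level of the 12 macrophage genes in the same mouse, as a description with no test. The list itself separated the groups. It was 9.01 to 9.89 in saline mice, 10.02 to 11.80 at 2 weeks and 10.06 to 11.19 at 4 weeks of bleomycin, and 9.39 to 9.74 at 6 weeks of recovery, so that a gene with no change of its own would also lie lower relative to it in bleomycin and higher in recovery. Relative to the list, the differences from saline ran from -1.72 ± 0.19 (SE, Cd209d) to -3.15 ± 0.25 (Cd209e) at 2 weeks and from -1.93 ± 0.12 (Cd209c) to -3.35 ± 0.22 (Cd209e) at 4 weeks. In the 6 week recovery group, against 4 weeks of bleomycin, they ran from 0.14 ± 0.30 (Cd209g) to 3.01 ± 0.21 (Cd209e), with 1.42 ± 0.17 for Cd209a and 1.10 ± 0.15 for Cd209c, genes that were not called by themselves in that comparison.

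**Figure D4:**
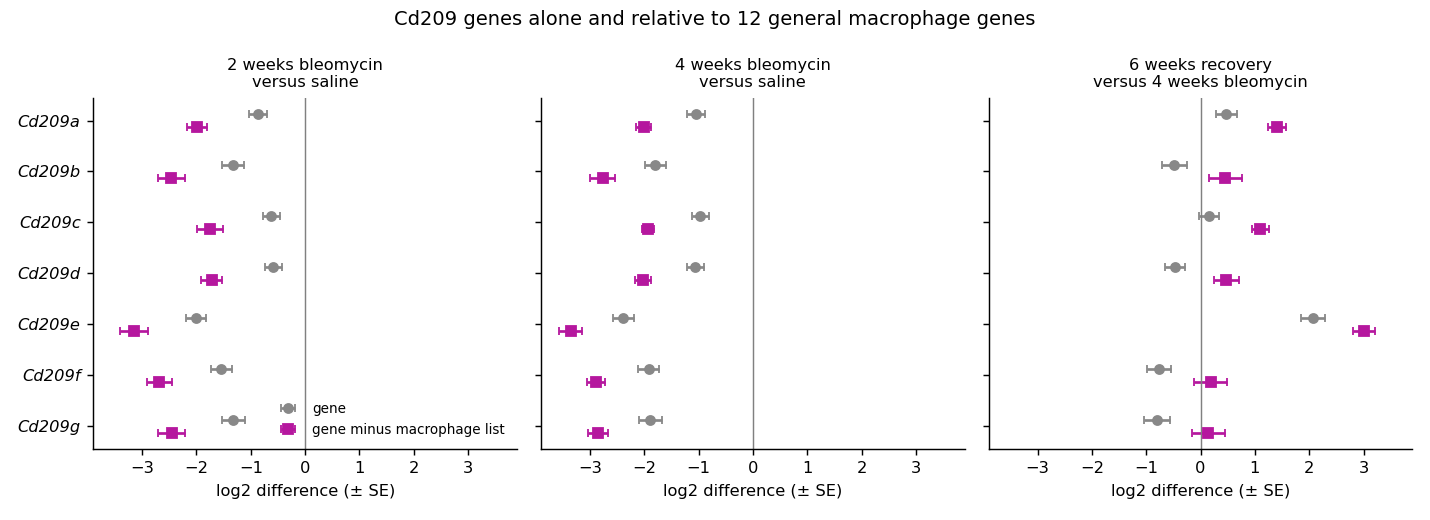
Log2 difference of each Cd209 gene (vertical axis) in 3 comparisons (panels), as the gene itself (grey circles, limma, ± SE) and minus the mean log2 level of 12 general macrophage genes in the same mouse (purple squares, ± SE). Each square differs from its circle by the shift of the list itself, downward in both bleomycin panels and upward in the recovery panel.

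Members were also compared with Cd209a in the same mouse, in two-sided permutation tests with p-values adjusted over 18 (6 members, 3 comparisons). Cd209a itself was 844th from the most lowered of 17037 genes at 2 weeks of bleomycin and 607th at 4 weeks. Cd209b and Cd209g were chosen by their distance below these same saline mice, and Cd209f shares sequence with Cd209g. The tests of Cd209b, Cd209f and Cd209g against saline are therefore no independent support, and Cd209f and Cd209g are not separate counts. At 2 weeks 4 members had fallen further than Cd209a. Their log2 differences relative to Cd209a were -1.15 ± 0.13 for Cd209e (SE, adjusted permutation p = 9e-05, from the smallest p of 1e-05, with all 10 mice below all saline mice), -0.69 ± 0.19 for Cd209f (adjusted permutation p = 0.00587), -0.47 ± 0.18 for Cd209b (adjusted permutation p = 0.0274) and -0.46 ± 0.20 for Cd209g (adjusted permutation p = 0.0427). The count was 2 over the 42 mice, and also without saline mouse 9 or saline mouse 10. It was 3 without any one of saline mice 3, 4, 5 and 7 or 2 week mice 2, 3, 5, 6 and 7, and 5 without saline mouse 2 or 2 week mouse 4. At 4 weeks the same 4 members had fallen further, from -0.75 ± 0.26 for Cd209b (adjusted permutation p = 0.0101) to -1.34 ± 0.16 for Cd209e (adjusted permutation p = 9e-05), while the differences of Cd209c (0.08 ± 0.11) and Cd209d (-0.01 ± 0.15) from Cd209a had adjusted permutation p-values of 0.611 and 0.951. In the 6 week recovery group, against 4 weeks of bleomycin, the differences relative to Cd209a were 1.59 ± 0.14 for Cd209e and from -0.32 ± 0.06 (Cd209c) to -1.27 ± 0.28 (Cd209g) for the other 5. These are given as a description, since they rest on the 6 week values by which the family was chosen.

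The lists share some genes (Mrc1, Clec10a and Mgl2 are also lectins, Chil3 is in 2 lists). Genes of resident dermal macrophages went in both directions. Of 18, 6 were called lower and 1 higher at 2 weeks of bleomycin, and 7 lower at 4 weeks, with medians of -0.14 and -0.29. Cd163, a scavenger receptor for haemoglobin, had means of 1037 normalized counts in saline skin, 419 and 306 at 2 and 4 weeks of bleomycin, and 293 and 345 at 6 and 10 weeks of recovery, a course like that of Cd209b. Mgl2, a galactose-binding lectin, had 1640, 651, 748, 1517 and 1383, a course like that of Cd209e. Ccl24, a chemokine for eosinophils, fell by 2.59 ± 0.33 on the log2 scale at 4 weeks. It was called higher in recovery (1.47 ± 0.38 at 6 weeks and 2.25 ± 0.35 at 10 weeks). Timd4, a receptor for dying cells, fell by 2.60 ± 0.34 at 4 weeks, from a low mean of 41.5 normalized counts to 6.50. Ccl8, another chemokine, was the gene called higher at 2 weeks (0.74 ± 0.26), with means of 2053 in saline skin and 5229 at 2 weeks. Gas6 and Mrc1, the mannose receptor, were not called at either bleomycin time. Of 13 dendritic cell genes measured, 4 were called lower and 2 higher at each bleomycin time. Xcr1, a receptor of cross-presenting dendritic cells, fell by 1.23 ± 0.23 at 4 weeks, Ccr7, the lymph node homing receptor, rose by 1.97 ± 0.23, and H2-Ab1, of the MHC class II, differed by -0.33 ± 0.21 (adjusted p = 0.237, limma).

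Other C-type lectin receptors went in both directions. Of 24, 21 were tested, and 9 were called higher and 4 lower at 2 weeks, 9 higher and 5 lower at 4 weeks, with medians of 0.33 and 0.42. Mgl2, Clec4g and Fcer2a, described above, were among those called lower at both times. Clec4e, known as Mincle, which senses mycobacterial glycolipid and dead cells, rose by 4.67 ± 0.33 at 4 weeks (adjusted p = 1.54e-15, limma) and was called lower again at 6 and 10 weeks of recovery. Clec10a, the other galactose-binding lectin, differed by -0.35 ± 0.19 at 2 weeks (adjusted p = 0.154) and was called lower at 4 weeks (-0.86 ± 0.19). Of 10 genes for ligands and signalling partners of CD209 proteins, 7 were called higher at 2 weeks and 5 at 4 weeks. Icam2, an endothelial ligand of DC-SIGN, rose by 0.83 ± 0.16 at 2 weeks, and Itgam, the integrin chain CD11b, by 1.56 ± 0.19, while Lsp1, which acts beneath the receptor, differed by 0.16 ± 0.14 (adjusted p = 0.374, limma).

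The interleukin-4, STAT6 and CSF1 genes, known to shape alternatively activated macrophages, were mostly not called. Of 15, 14 were tested, and 2 were called higher and 1 lower at 2 weeks, 3 higher and 1 lower at 4 weeks. The gene called lower was Retnla, a secreted product of alternatively activated macrophages, with means of 3898 normalized counts in saline skin, 185 and 156 at 2 and 4 weeks of bleomycin and 2409 and 3310 at 6 and 10 weeks of recovery. Its log2 fold change was -4.77 ± 0.34 at 4 weeks (adjusted p = 3.59e-15, limma) and 4.11 ± 0.40 from there to 6 weeks of recovery, the same directions as Cd209e. Chil3, also in this list, went the opposite way. It was called higher at 2 weeks (6.80 ± 0.34) and 4 weeks (5.57 ± 0.34), and lower at 6 weeks of recovery against 4 weeks of bleomycin. Arg1 was not called at 2 weeks (-0.11 ± 0.18). Stat6 differed by 0.06 ± 0.07 and -0.01 ± 0.07 at 2 and 4 weeks.

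Markers of some other skin cells moved with the groups as well. Of 5 hair follicle keratins analysed, 5 were called lower at both bleomycin times and 5 higher in both recovery groups against 4 weeks of bleomycin. Their summed level was 1972 to 203710 normalized counts in saline mice, 31.8 to 1827 at 2 weeks, 27.9 to 4584 at 4 weeks, 96.4 to 96205 at 6 weeks and 1290 to 159057 at 10 weeks of recovery. Of 6 adipocyte genes, 3 were called lower at each bleomycin time and 4 and 5 higher at 6 and 10 weeks of recovery, and their sum ran from 15822 to 28545 in saline mice, 9607 to 25786 and 11755 to 20700 with bleomycin, and 20460 to 33077 and 23586 to 44520 in recovery. Of 8 fibroblast genes, 5 were called lower at 2 weeks and 3 at 4 weeks, and of 8 lymphatic endothelial genes 1 and 5 were called higher. Of 6 skeletal muscle genes 1 and 2 were called higher. Of 6 keratinocyte genes 0 were called in either direction, with a median log2 difference of 0.10 at either time. Over all genes, 7.43% and 7.37% were called lower and 9.3% and 10.5% higher at 2 and 4 weeks of bleomycin. Against 4 weeks of bleomycin, 4.8% and 6.73% of all genes were called higher at 6 and 10 weeks of recovery. No gene of these lists was at 0 in all mice. The part of these cells in the Cd209 differences was not tested.

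Mice of one group that were high in one Cd209 gene tended to be high in the others. After group means were taken off, Pearson's r between members over the 44 mice ran from 0.25 (Cd209e and Cd209f) to 0.90 (Cd209f and Cd209g), with a median of 0.49 over the 21 pairs, and from 0.19 to 0.90 with a median of 0.46 over the 42 mice. These correlations are descriptions across mice that share library, depth and biopsy makeup, and Cd209f and Cd209g also share sequence. The difference log2 Cd209f minus log2 Cd209g stayed between means of 0.90 ± 0.12 (SD, n = 10, 2 weeks) and 1.18 ± 0.22 (n = 8, 10 weeks of recovery). Next to that pair, Cd209d and Cd209e (0.78), Cd209a and Cd209c (0.76) and Cd209a and Cd209e (0.74) went together most.

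**Figure D5:**
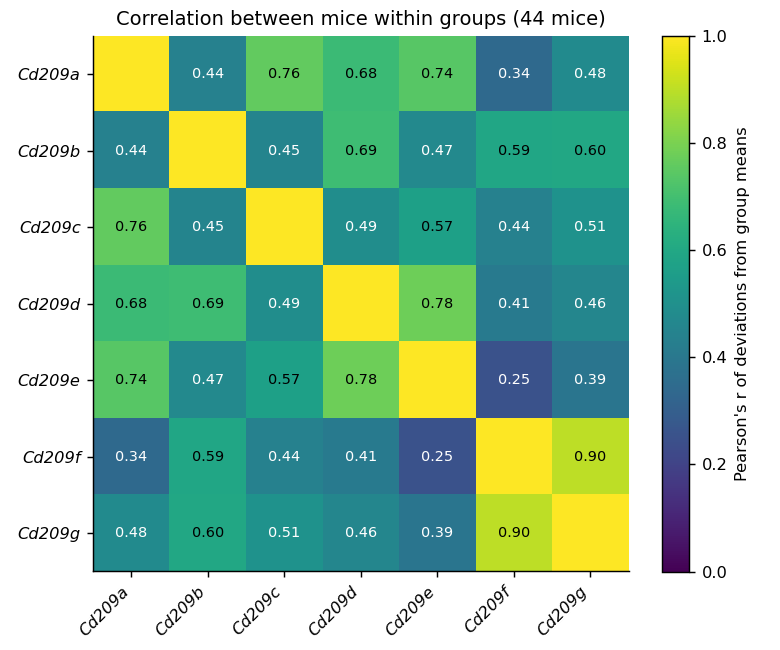
Pearson's r between pairs of Cd209 genes across 44 mice, of log2(normalized count + 1) after the mean of each group was taken off (colour scale from 0 to 1, values printed in the cells). The pair Cd209f and Cd209g stands out at 0.90, and Cd209f had its lowest value, 0.25, with Cd209e.

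By the same measure, the genes outside the family most like the mean profile of its members were Mgl2 (r = 0.76), Cpq (0.72), Nrn1 (0.70), B3galnt1 (0.70), Celf2 (0.69), Kif5a (0.67), Chst1 (0.67) and Slc1a5 (0.67), over 44 mice. For single members the closest were Sept6 (0.82) and Slamf7 (0.78) for Cd209a, Cd163 (0.80) and F13a1 (0.69) for Cd209b, Fcrls (0.76) and Adam23 (0.68) for Cd209c, and Carhsp1 (0.68) and Rgs18 (0.65) for Cd209d. For Cd209e they were Mgl2 (0.72) and Ffar4 (0.71), for Cd209f Rab11b-ps2 (0.61) and C6 (0.60), and for Cd209g Arhgef3 (0.60) and Medag (0.59). The median r with the family profile was 0.45 over the resident macrophage list, 0.44 over the dendritic cell list, 0.39 over the general macrophage list and 0.14 over the monocyte list, beside 0.47 over the fibroblast list, 0.52 over the adipocyte list and 0.00 over all genes. It was 0.33 over the lymphatic endothelial list, 0.32 over the skeletal muscle list, -0.01 over the keratinocyte list and -0.32 over the hair follicle list. Over the 42 mice the medians were 0.46 for resident macrophage, 0.31 for dendritic cell, 0.44 for general macrophage, 0.15 for monocyte, 0.39 for fibroblast, 0.44 for adipocyte, 0.18 for lymphatic endothelial, 0.13 for skeletal muscle, -0.20 for keratinocyte and -0.28 for hair follicle genes. The differences between lists were not tested.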

How the data were processed

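Skin RNA of 44 mice was sequenced as paired 50-base reads (TruSeq Stranded mRNA) and, per the study's methods and the submitters' processing notes, aligned to mm10 with STAR 2.4.0. The counting tool, its strand setting and its annotation are not given in the sources used here. The deposited signal values are the authors' normalized counts, reads on a gene divided by a DESeq2 1.12.3 size factor. Of 43411 Ensembl identifiers, 42929 (98.9%) matched a symbol. Whole reads were recovered from the steps of the values (100% whole within 0.1 read) and gave 8509094 to 15285577 reads on genes per mouse (median 11310008). No pair of libraries of one group agreed within counting noise (178 pairs, smallest chi-square per degree of freedom 5.059).

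Genes with a mean above 3 were tested as log2(normalized count + 1), a scale that understates changes of low genes, with limma 3.58.1 in R 4.3.3 over all 5 groups in one fit, and p-values were adjusted over all 17037 genes. Differences relative to Cd209a at 2 and 4 weeks of bleomycin used permutation tests over mice with 100000 resamples. Alternatives used edgeR 4.0.16 and DESeq2 1.42.0 on recovered reads, and fits without each mouse. The methods were tested on simulated data. The members and gene lists were chosen with earlier results of these data known. Named were, from each list, the 3 most abundant genes and the called gene with the largest rise and fall per comparison, of which the text gives a part, with the 8 genes most like the family, the 2 most like each member and the 3 neighbours on each side. Epcam and Tchh were not analysed here. Gene positions and the 50-base comparisons come from an annotation and transcripts of GRCm38, the assembly that mm10 names.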

Additional observations from a re-analysis of the deposited data

Results flagged for a closer look

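One value stood far from its group. Cd209a in saline mouse 1 was 308 normalized counts, the lowest of 10, and the next saline mouse had 586, a gap of 0.505 of the range of the group (Dixon's test). Of 35 groups of member values examined this way, 1 was singled out, and chance gives about 1 in 20. The same mouse had the lowest sum of the Cd209 genes in its group. Over the mice without it and without 2 week mouse 2, each bleomycin comparison with saline called 7 members lower.

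A difference between recovery times was seen for a pair of genes. The effect of Cd209f relative to saline was higher at 10 than at 6 weeks of recovery by 1.47 ± 0.23 on the log2 scale (SE), in 8 of 8 mice, and that of Cd209g by 1.43 ± 0.26, in 8 of 8 mice. These values draw on the 6 week level of Cd209g, by which the family was chosen, and Cd209f shares sequence with it, so they are no independent support. The mean counts were 242 against 94.9 for Cd209f and 108 against 42.6 for Cd209g. The part of the sequence that this pair shares (38.17% and 38.66% of their 50-base stretches) in the likeness of these values was not tested.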

How the results depend on the processing

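Results were recomputed with a pseudocount of 0.1, without a filter or with one of 10 normalized counts in 6 mice, TMM rescaling, only the 2 groups compared, no fold change threshold, edgeR, DESeq2, the 42 mice, the replicate number as a block, and leaving out each mouse. With DESeq2, 1 member (Cd209g, -0.61) was called between 2 and 4 weeks of bleomycin in place of 0. Leaving out single mice gave 1 to 5 members called in the 6 week recovery group against 4 week bleomycin (3 with all mice), and 2 to 5 members differing from Cd209a at 2 weeks of bleomycin (4 with all mice, 2 over the 42 mice). Of the 8 genes most like the family, 3 stayed among the first 8 with Spearman's correlation and 4 over the 42 mice, the latter added after seeing the data. Between the recovery times, differences near 0 changed sign when single mice were left out. Over all 54 alternatives these differences ran from -0.10 to 0.11 for Cd209a, -0.03 to 0.26 for Cd209b and -0.23 to 0.01 for Cd209e. The cause of these shifts was not tested.

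Replicate numbers did not pair the mice: over 78 same-numbered pairs the correlation of deviations ran from -0.69 to 0.38, with 18 above 0.1. With the replicate number as a block, 6 members were called at 2 weeks and 7 at 4 weeks of bleomycin, 0 between these times, and no count of called members changed by over 1.5 times. Low depth was not a limit for the members, all of which had at least 23 reads in every mouse.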
